A study of Homo sapiens with 23 samples.

Results

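The chromosome 19 ZNF genes are the protein-coding genes of this chromosome whose symbol is ZNF followed by digits only, with ZNF91, ZNF611 and ZNF93 left out. The annotation held 237 of them, and all 237 had estimated counts in the RNA-seq files, out of 19849 protein-coding genes with counts in the whole genome and 1469 on chromosome 19. The rule uses the symbol and the position of a gene and none of its measured values. For comparison, 236 protein-coding ZNF genes lay on other chromosomes. A further 1223 protein-coding genes of chromosome 19 had symbols other than ZNF with digits and an optional letter. They were set apart by symbol alone, so zinc finger genes under other names can be among them.

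Zinc finger proteins of the KRAB type bind DNA through tandem arrays of C2H2 fingers. Their KRAB domain recruits TRIM28 (KAP1), which brings in the methyltransferase SETDB1 and leads to H3K9me3 at the bound site. Human KRAB zinc finger genes arose largely by tandem duplication, many of them sit in clusters on chromosome 19, and many of their proteins bind transposable elements. The genes themselves are known to carry H3K9me3 over their zinc finger exons, where ZNF274 is one of the recruiting factors.

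RNA was measured in SCi-NCCITs, a derivative of the human embryonal carcinoma line NCCIT. All 6 libraries came from cells that carried dCas9-KRAB on a piggyBac transposon under tetracycline-inducible control, together with 2 sgRNAs against SVA transposons, and that were kept under puromycin and a second selection. In 3 libraries the cells had no doxycycline, and in the other 3 they had received 2 µg/mL doxycycline for 72 hours. The methods describe stable clones isolated after selection, and how many separate cultures stand behind the replicates was not given, so the p-values measure only the spread between these libraries. No library came from cells that had doxycycline without dCas9-KRAB or the sgRNAs, so the effect of the drug itself and of SVA repression cannot be told apart. H3K9me3 peak lists came from 1 library of parental NCCITs, which lack dCas9-KRAB, and from 2 untreated and 2 doxycycline-treated SCi-NCCIT libraries. YY1 peak lists came from another 2 and 2 SCi-NCCIT libraries.

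Between 14683468 and 47862394 estimated counts per library fell on annotated genes, and the replicate 1 library without doxycycline was the shallowest. The level assigned to ZNF10, which lies on another chromosome and whose KRAB domain is the one commonly fused to dCas9, rose from a mean of 7.40 to 1660 TPM. Every doxycycline library was above every untreated one. These reads may come from the transgene, and their origin was not tested. All 10 pluripotency markers examined were expressed, with means between 35.2 and 348 TPM without doxycycline, and 9 of 10 markers of differentiated cells were under 1 TPM. With doxycycline, 5 of the 10 pluripotency markers were downregulated, among them TDGF1 (log2 fold change -1.13) and NANOG (-0.57). POU5F1 (-0.12), SOX2 (-0.19) and DPPA4 (0.05) were among those that did not pass the test. The summed level of the 10 ran from 1750 to 1940 TPM without and from 1340 to 1510 TPM with doxycycline. Of the 10 differentiation markers, only 5 had enough counts to be tested, and all 5 had a positive log2 fold change. GATA6 alone passed the test (1.46, from 0.432 to 1.05 TPM). The summed level of the list was 6.17 to 8.47 TPM without and 7.0 to 9.15 TPM with doxycycline. These markers moved in the same libraries as the zinc finger genes described here, and their part in the results was not tested.

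When the genes were ordered by start and a gap of over 1 Mb ended a cluster, 228 of the 237 fell into 9 clusters of at least 5 genes. Cluster 1, at 2.82 to 2.94 Mb of hg19, held 5 genes, cluster 2 (7.07 to 9.90 Mb) 15 and cluster 3 (11.59 to 12.75 Mb) 25. Cluster 4, next to the centromere at 19.78 to 24.31 Mb, held 35 genes. On the long arm, cluster 5 (35.17 to 35.46 Mb) held 5 genes, cluster 6 (36.67 to 38.31 Mb) 24 and cluster 7 (44.03 to 45.58 Mb) 24. The telomeric clusters were the largest, with 38 genes in cluster 8 (52.07 to 54.08 Mb) and 57 in cluster 9 (55.99 to 58.99 Mb). The remaining 9 genes stood outside clusters: ZNF333, ZNF536, ZNF507, ZNF546, ZNF574, ZNF526, ZNF541, ZNF114 and ZNF473.

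Without doxycycline most of these genes were expressed, at modest levels. Of the 237 genes, 216 (91.1%) had a mean of 1 TPM or more, against 64.7% of protein-coding genes and 89.0% of ZNF genes on other chromosomes. In every untreated library, 212 were at 1 TPM or more. The median level of the 237 genes was 5.19 TPM, close to the 5.42 TPM of all protein-coding genes. That of ZNF genes on other chromosomes was 7.9 TPM. Among genes at 1 TPM or more, however, the median was 5.62 TPM for the chromosome 19 ZNF genes and 17.7 TPM for protein-coding genes. The middle part of the distribution, between the quartiles, ran from 3.08 to 8.50 TPM. Only 18 genes (7.6%) reached 20 TPM, a level that 30.1% of protein-coding genes reached. The 10 most abundant genes made up 22.6% of the summed level, and the 50 most abundant 55.4%.

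**Figure D1:**
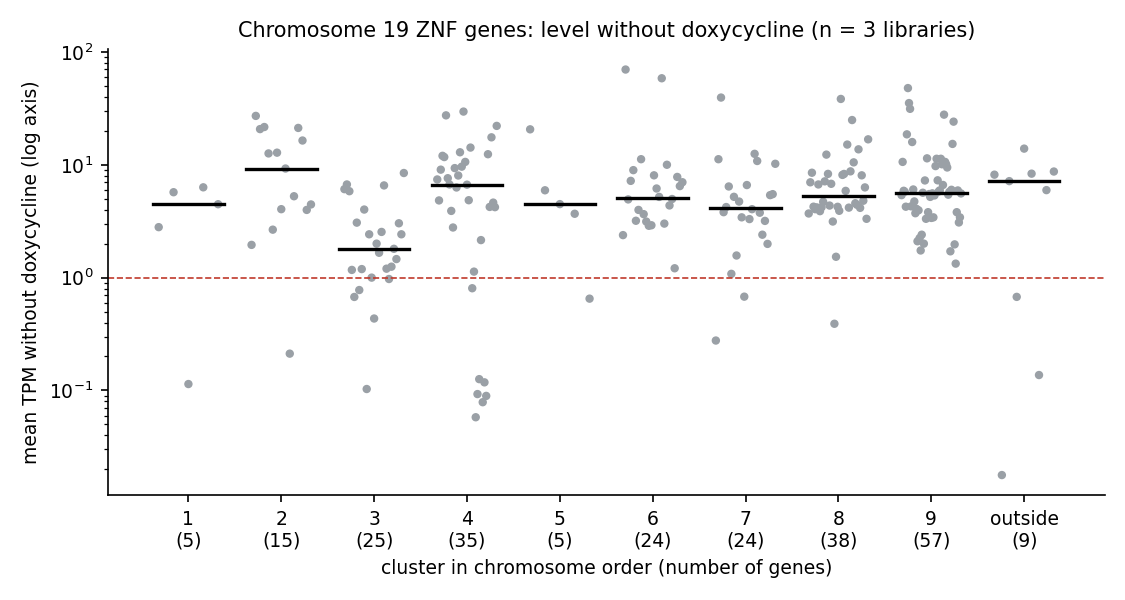
Mean TPM without doxycycline (log axis, n = 3 libraries) of each of the 237 chromosome 19 ZNF genes, grouped by cluster in chromosome order, with the cluster median as a black bar and 1 TPM as a dashed line. Cluster 3 has the lowest median, 1.80 TPM, and a group of cluster 4 genes lies under 0.2 TPM.

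ZNF146, which encodes a protein made almost only of zinc fingers with no KRAB domain, was the most abundant gene. It had 69.3, 72.9 and 67.2 TPM in the 3 untreated libraries. ZNF875, formerly HKR1, followed with 57.5, 61.5 and 56.3 TPM. Both lie in cluster 6, and their values did not overlap. ZNF581 of cluster 9 had 49.5, 44.6 and 49.2 TPM. Below it came ZNF428 of cluster 7, with 44.7, 35.3 and 38.1 TPM, and ZNF83 of cluster 8, with 38.2, 36.8 and 39.9 TPM. ZNF428 and ZNF83 overlapped in these libraries, and the highest library of ZNF428 also passed the lowest of ZNF581. ZNF428 shares 30.3% of its 31-base sequence words with SRRM5 and ZNF581 shares 21.8% with ZNF580, so part of their estimated counts rests on how reads were divided between these genes.

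Level differed between clusters. Cluster 2 had the highest median among clusters, 9.26 TPM, led by ZNF358 (27.1 ± 1.79 TPM, SD, n = 3). Cluster 3 had the lowest, 1.80 TPM, and no gene of it reached 10 TPM, its highest being ZNF791 at 8.45 ± 1.90 TPM. The other medians lay between 4.13 TPM in cluster 7 and 6.66 TPM in cluster 4. The leading genes there were ZNF57 in cluster 1 (6.31 ± 0.869 TPM), ZNF738 in cluster 4 (29.6 ± 1.31 TPM) and ZNF302 in cluster 5 (20.6 ± 3.69 TPM). In clusters 6 and 9, every gene was at 1 TPM or more.

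Of the 21 genes under 1 TPM, 12 were in clusters 3 and 4. In cluster 4, ZNF676, ZNF729, ZNF98, ZNF99, ZNF723 and ZNF728 were all under 0.2 TPM, with means between 0.0579 and 0.126 TPM, while ZNF257 and ZNF730, next to them on either side, were at 1 TPM or more. In order of start within the list, the 6 genes follow one another, interrupted only by ZNF492. In cluster 3, the 5 genes under 1 TPM were ZNF491, ZNF439, ZNF763, ZNF844 and ZNF442. ZNF763 and ZNF844 have under 50% of their 31-base words to themselves, and a median of 75.5% of the words of cluster 3 genes were unique, against 89.4% over all 237 genes, so levels in that cluster are less certain.

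The comparison with doxycycline asked which of these genes changed after induction of dCas9-KRAB directed to SVAs. Of the 237 genes, 231 passed the filter on low counts, and the 6 that did not were ZNF536, ZNF676, ZNF729, ZNF98, ZNF723 and ZNF728. With edgeR's quasi-likelihood test and an adjusted p under 0.05 over all genes, 38 of the 231 were called, of which 34 were downregulated and 4 upregulated. Over all 16370 genes tested, 17.5% were called, 8.49% lower and 8.97% higher. The total share of zinc finger genes called, 16.5%, was thus near the background, while their split by direction was 14.7% lower and 1.73% higher. The median log2 fold change was -0.13 for the 231 genes and 0.00 for all genes tested, and 79.2% of the 231 had a negative value against 50.4% of all genes. These counts depended on single libraries, since 11 genes were called without untreated replicate 2, 15 without untreated replicate 3, 19 without doxycycline replicate 1 and 11 without doxycycline replicate 2. The calls over all genes also fell in these fits, from 2858 to 1468, 1748, 1749 and 1396, respectively. Of the 38 calls, 9 held in every fit with a library left out and 28 when protein_coding transcripts alone were counted. The median stayed between -0.15 and -0.10 with any 1 of the 6 libraries left out.

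The changes were small. The 34 falls ran from 15% to 50.8%. Their median on the log2 scale was -0.40, and 4 falls reached 0.5 in size. In CPM, the depth-scaled counts behind the test, 73 of the 231 genes had all doxycycline libraries below all untreated ones (17.8% of all genes tested did) and 10 had them all above (19.2% of all genes). For the 34 genes called lower, the groups did not overlap in CPM, and for 25 of them they did not overlap in TPM either. These genes were chosen by a test on the same libraries, so their lack of overlap gives no further support to the calls.

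On other chromosomes, 222 ZNF genes were tested, of which 26 were called lower and 4 higher, with a median log2 fold change of -0.08. ZNF10, whose reads may come from the transgene, is among the 4. The other protein-coding genes of chromosome 19 went the other way, with 27 of 930 called lower, 119 higher and a median of 0.11. Both lists were compared in the same 6 libraries, and the differences between the lists were not tested.

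**Figure D2:**
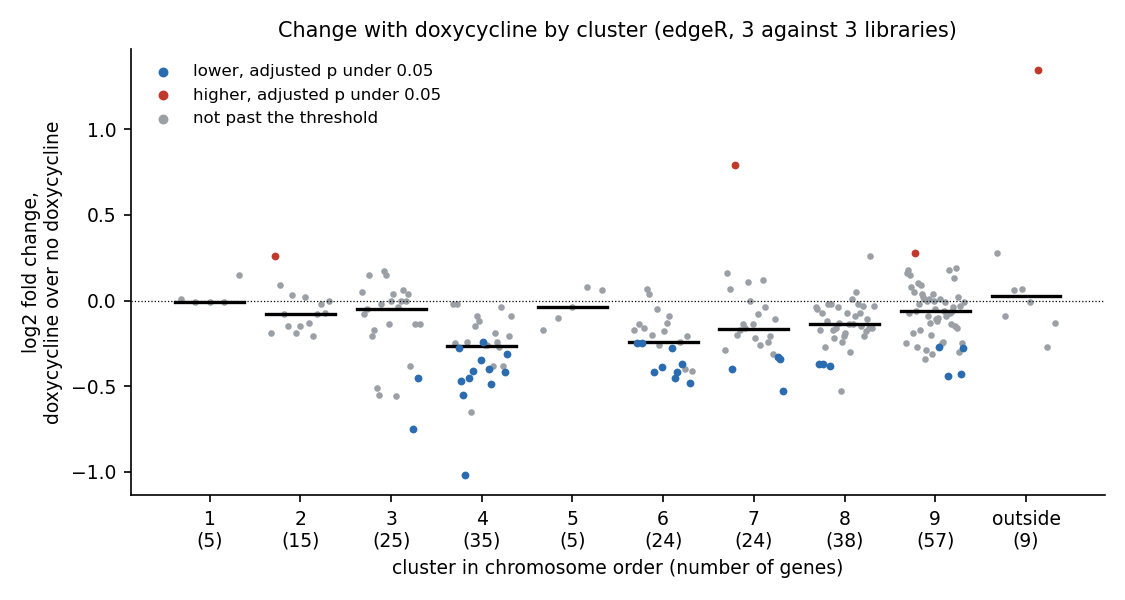
Log2 fold change with doxycycline (doxycycline over no doxycycline, edgeR, 3 against 3 libraries) of the 231 genes tested, by cluster in chromosome order, with blue for genes called lower, red for genes called higher, grey for the rest, and the cluster median as a black bar. The medians of clusters 4 and 6, -0.27 and -0.24, are the lowest, and all 4 red points lie outside these clusters.

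The downregulated genes were unevenly spread over the clusters. Cluster 4 held 12 of the 34, out of 30 genes tested, and all 30 had a negative log2 fold change, with a median of -0.27. Cluster 6 held 9, out of 24 tested, with a median of -0.24. Of the remaining 13 falls, 2 were in cluster 3, 4 in cluster 7, 3 in cluster 8 and 4 in cluster 9, and clusters 1, 2 and 5 held none. The medians were -0.16 in cluster 7 and -0.14 in cluster 8, and between -0.08 and -0.01 in clusters 1, 2, 3, 5 and 9. With a library left out, between 5 and 14 genes of cluster 4 and between 4 and 10 of cluster 6 were called lower, and their medians stayed between -0.34 and -0.25 and between -0.26 and -0.22. The 8 other protein-coding genes inside the spans of these clusters included 6 that were tested, with a median log2 fold change of -0.10. They are other by symbol alone, and whether they encode zinc finger proteins was not examined. None of the 6 was called by edgeR or DESeq2, and 0 had an unadjusted edgeR p under 0.05. Over all genes tested 8.49% were called lower, so 6 genes are too few for a contrast with the zinc finger genes of these clusters.

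The summed level of each cluster showed the same direction on the TPM scale. Cluster 4 summed to 261.9, 285.1 and 279.0 TPM without doxycycline and to 213.8, 214.9 and 249.1 TPM with it. Cluster 6 summed to 241.4, 259.1 and 240.2 TPM without and to 199.1, 194.1 and 224.8 TPM with doxycycline. In both, every doxycycline library was below every untreated one, and doxycycline replicate 3 was the highest of its group. The means fell by 17.9% and 16.6%, respectively. Cluster 7 was 5.0% lower with no overlap, and in the other clusters the groups overlapped, cluster 9 summing to 487 ± 12.8 TPM without and 469 ± 13.6 TPM with doxycycline. Over all 237 genes the sum was 1763, 1833 and 1784 TPM without and 1610, 1567 and 1735 TPM with doxycycline, which is 8.7% lower on average. With 3 libraries a group, the range of the untreated libraries was 70 TPM and that of the doxycycline libraries 168 TPM.

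The largest fall was that of ZNF486 in cluster 4 (chromosome 19, 20278023 to 20311297). It had 15.5, 16.1 and 17.6 CPM without doxycycline and 8.93, 7.43 and 7.95 CPM with it. Every doxycycline library was well below the lowest untreated one. The log2 fold change was -1.02 ± 0.0932 (SE), with an adjusted p of 1.35e-04 by edgeR. Its neighbour ZNF90 (20188803 to 20237885) was more abundant, at 49.1, 48.3 and 49.9 CPM without and 32.8, 31.9 and 36.0 CPM with doxycycline. The spread within each group was small against the gap between them, and the log2 fold change was -0.55 ± 0.0616 (edgeR adjusted p = 4.87e-04). ZNF682, next to ZNF90, had 12.7, 12.2 and 11.9 CPM without and 8.42, 8.90 and 9.19 CPM with doxycycline, a fall of 27.9% (edgeR adjusted p = 0.00430). In order of start within the list, ZNF253, ZNF682, ZNF90 and ZNF486 follow one another, and all were called lower. Genes left out of the list can lie between them. The call of ZNF253 was kept in 2 of the 6 fits with a library left out, and those of ZNF682, ZNF90 and ZNF486 in all 6.

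Further along cluster 4, ZNF43 had 30.0, 35.4 and 30.8 CPM without doxycycline and 20.3, 21.9 and 26.4 CPM with it. The groups did not overlap, with a log2 fold change of -0.49 ± 0.106 (edgeR adjusted p = 0.0136). ZNF626, at 7.43, 5.83 and 7.08 CPM without and 4.93, 5.40 and 4.49 CPM with doxycycline, was closer to overlap, and in TPM its groups overlapped. Its call was lost with protein_coding transcripts alone (edgeR adjusted p = 0.0520) and in 5 of the 6 fits with a library left out, and that of ZNF43 in 2 of the 6. ZNF738, the most abundant gene of the cluster, fell by 15% from 34.2 ± 1.66 to 29.1 ± 0.973 CPM (SD, n = 3), a call lost in 5 of the 6. The other genes called lower there were ZNF253, ZNF85, ZNF708, ZNF100, ZNF675 and ZNF681, with log2 fold changes between -0.42 and -0.28.

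In cluster 6, ZNF607 had 18.4, 18.2 and 17.1 CPM without doxycycline and 12.5, 12.6 and 13.3 CPM with it. The values within a group were nearly equal, and the fall was 28.2% (log2 fold change -0.48 ± 0.0698, edgeR adjusted p = 0.00214). ZNF527 had 6.61, 7.32 and 6.32 CPM without and 5.09, 4.88 and 4.81 CPM with doxycycline, a fall of 27.0% (log2 fold change -0.45, edgeR adjusted p = 0.0153). With protein_coding transcripts alone its log2 fold change was -0.29 and did not pass (edgeR adjusted p = 0.359), and the call was lost in 2 of the 6 fits with a library left out. The most abundant genes of the cluster fell as well, by smaller fractions. ZNF146 had 133, 144 and 139 CPM without and 109, 118 and 124 CPM with doxycycline, a log2 fold change of -0.25 ± 0.0624 (edgeR adjusted p = 0.0260), lost in 4 of those 6 fits. ZNF875 had 60.4, 64.6 and 59.9 CPM without and 51.5, 50.8 and 50.3 CPM with doxycycline, a log2 fold change of -0.28 ± 0.0528 (edgeR adjusted p = 0.00773). The groups of both genes were apart. ZNF569, ZNF850, ZNF829, ZNF793 and ZNF260 were the other genes called lower, with log2 fold changes between -0.42 and -0.25.

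Outside these clusters, ZNF709 of cluster 3 had 3.48, 4.26 and 4.06 CPM without doxycycline and 3.11, 1.84 and 2.15 CPM with it, a log2 fold change of -0.75 ± 0.197 (edgeR adjusted p = 0.0304). Only 21.2% of its 31-base words are unique and 76.0% are shared with a second gene of the annotation, ENSG00000196826, and its TPM groups overlapped, so its values are uncertain. ZNF490, also of cluster 3, fell by 27.0% from 6.04 ± 0.702 to 4.45 ± 0.0769 CPM, with 44.7% of its words unique. ZNF296 of cluster 7, whose mouse counterpart is known from reprogramming to pluripotency, had 12.9, 10.7 and 10.8 CPM without and 9.57, 6.99 and 7.10 CPM with doxycycline. All of its words are unique, no H3K9me3 peak covered it in any library, and the log2 fold change was -0.53 ± 0.137 (edgeR adjusted p = 0.0288). The calls of ZNF709 and ZNF490 were each lost in 4 of the 6 fits with a library left out, and that of ZNF296 in 5, where its edgeR adjusted p lay between 0.0562 and 0.111. In cluster 9, ZNF814 fell from 24.3 ± 0.718 to 17.9 ± 0.555 CPM, or by 26.5% (edgeR adjusted p = 0.00205), and 17.8% of its words are shared with ZNF587.

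**Figure D3:**
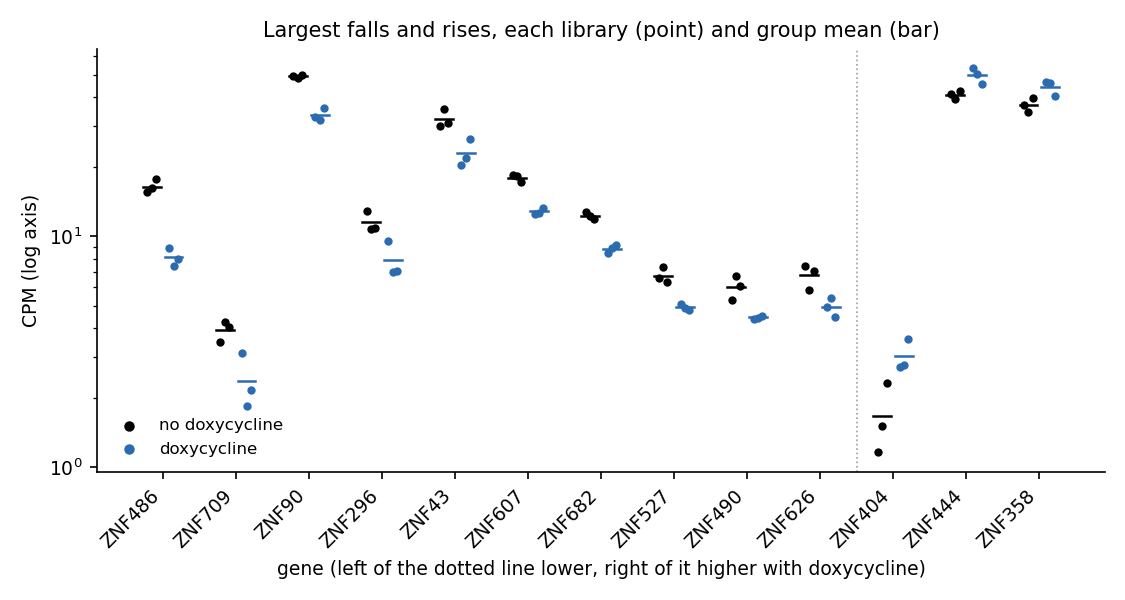
CPM (log axis) in each library (points) and group mean (bars) of the 10 largest falls and of the 3 rises among genes with an adjusted p under 0.05 and a mean of at least 1 CPM. The 13 genes were chosen by a test on these same counts. The 2 groups of points do not overlap for any of them, and the gap is widest for ZNF486.

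Only 4 genes were called higher, and no pair of them shares a cluster. ZNF444 of cluster 9, which carries a SCAN domain, had 41.2, 39.1 and 42.6 CPM without doxycycline and 53.2, 50.3 and 45.6 CPM with it, a log2 fold change of 0.28 ± 0.0695 (edgeR adjusted p = 0.0248). ZNF358 of cluster 2 had 37.1, 34.6 and 39.6 CPM without and 46.7, 46.0 and 40.6 CPM with doxycycline, so its lowest doxycycline library was only just above its highest untreated one (log2 fold change 0.26 ± 0.0755, edgeR adjusted p = 0.0449). Its call was lost when protein_coding transcripts alone were counted (edgeR adjusted p = 0.0537) and in 5 of the 6 fits with a library left out, and that of ZNF444 in 4 of the 6. ZNF404 of cluster 7 had 1.16, 1.51 and 2.32 CPM without and 2.71, 2.76 and 3.59 CPM with doxycycline (log2 fold change 0.79 ± 0.233, edgeR adjusted p = 0.0466). With protein_coding transcripts alone its log2 fold change was 2.23 and did not pass (edgeR adjusted p = 0.0890), and the call was kept in 1 of the 6 fits with a library left out. On the TPM scale the ZNF404 groups overlapped, at 3.30, 4.51 and 4.86 against 5.06, 4.32 and 5.46 TPM. ZNF404 shares 3 of its 31-base words with ZNF10, whose reads may come from the transgene. The part of ZNF10 reads in the ZNF404 value was not tested. ZNF541, a testis and meiosis gene outside clusters, is named after its values were seen, since its mean was under 1 CPM. It had 5, 8 and 8 estimated counts without and 25, 28 and 33 with doxycycline, with a log2 fold change of 1.35 ± 0.315 (edgeR adjusted p = 0.0191) at 0.137 and 0.244 TPM. DESeq2 did not call it, and its counts kept it out of the fit that required at least 10 in every library. The edgeR call of ZNF541 was kept in 2 of the 6 fits with a library left out.

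Several genes with known roles were looked at whatever their change. ZNF274, which recruits SETDB1 to zinc finger gene bodies, had 29.4, 28.2 and 27.7 CPM without doxycycline and 32.8, 31.6 and 32.6 CPM with it, with no overlap and an edgeR adjusted p of 0.0567, short of the threshold. It passed when at least 10 counts in every library were required (edgeR adjusted p = 0.0438) and without untreated replicate 1 (0.0366). ZNF649 and ZNF765 both bind LINE-1 elements. ZNF649 was downregulated from 11.9 ± 0.705 to 9.27 ± 1.16 CPM (log2 fold change -0.37, edgeR adjusted p = 0.0405), a call lost with protein_coding transcripts alone (edgeR adjusted p = 0.0935) and in 4 of the 6 fits with a library left out. ZNF765 had a log2 fold change of -0.16 (95% interval -0.31 to 0.00) and did not pass. ZNF808, which binds MER11 elements and is needed for pancreas development, had -0.21 (-0.56 to 0.13), and ZNF568, whose mouse counterpart silences a placental Igf2 transcript, had -0.18 (-0.44 to 0.08). ZNF224, a repressor of the aldolase A gene, had -0.22 (-0.44 to 0.00), with all doxycycline libraries below the untreated ones. For the imprinted gene ZNF331 the value was -0.03 (-0.16 to 0.10), so a change beyond that interval is not supported by these libraries. ZNF534 was barely detected, at 12, 11 and 21 estimated counts without and 16, 11 and 22 with doxycycline, and its interval, -1.42 to 0.35, was wide.

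Of the other genes named for their level, ZNF581 had a log2 fold change of -0.19 (-0.37 to -0.01), ZNF302 of -0.17 (-0.38 to 0.04), ZNF791 of -0.14 (-0.31 to 0.03), ZNF83 of -0.07 (-0.22 to 0.09), ZNF428 of 0.07 (-0.15 to 0.29) and ZNF57 of -0.01 (-0.26 to 0.24). None of these 6 passed edgeR's threshold after adjustment with all libraries or was called by DESeq2, ZNF302 passed without untreated replicate 1 (edgeR adjusted p = 0.0232), and ZNF581 alone had an unadjusted p under 0.05. Precision depended on level, with a median SE of 0.302 for genes under 1 TPM, 0.105 for genes under 10 TPM and 0.0769 for genes at 10 TPM or more. Of the 50 genes at 10 TPM or more, 13 were called, against 38 of the 231 tested at any level. The share called among all genes of the genome at that level was not computed.

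A list of 34 genes was taken for the KRAB pathway in a broad sense. It held cofactors of KRAB zinc finger proteins, such as TRIM28 and SETDB1, and also other genes, such as SUV39H1, ATRX, NRBF2 and UHRF1. DNMT3B is both in this list and among the pluripotency markers above. All 34 were expressed, with a median log2 fold change of -0.09. By edgeR, 4 were called lower (11.8%, against 8.49% of all genes tested) and none higher, so fewer were called in all than the 17.5% of all genes. At an unadjusted edgeR p under 0.05, 13 of the 34 were lower and 0 higher. Of all 16370 genes tested, 5315 had such a p in either direction. By DESeq2, 6 of the 34 were called, all lower, against 18.6% of all genes in either direction. The 4 were MPHOSPH8, the H3K9me3-binding subunit of the HUSH complex (41.3, 47.0 and 38.6 TPM without against 26.5, 25.7 and 28.0 TPM with doxycycline, log2 fold change -0.66), the DNA methyltransferase DNMT3B (-0.60), the SETDB1-associated factor RESF1 (-0.44) and the maintenance methylation factor UHRF1 (-0.40). TRIM28, the common KRAB corepressor, had 432, 443 and 416 TPM without and 391, 395 and 374 TPM with doxycycline. Its TPM groups were apart, but in the count test its log2 fold change was -0.07 (-0.24 to 0.09), and that of SETDB1 -0.10 (-0.21 to 0.01), neither past the threshold. The SVA-binding gene ZNF91, one of the zinc finger genes left out of the list, had -0.14 (-0.38 to 0.11), while ZNF611 (-0.51) and ZNF93 (-0.27) were downregulated.

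Properties that the choice of genes did not use differed across the list. The GC content of the longest transcript was lowest in clusters 4 and 6, with medians of 37.2% and 39.7%, against 42.4% over all 237 genes and 48.8% over protein-coding genes. Across the 231 genes, log2 fold change and GC content had a Pearson r of 0.30 and a Spearman rho of 0.35, across 222 ZNF genes on other chromosomes 0.12 and 0.32, and across 15199 protein-coding genes 0.16 and 0.24. This is a description across genes that share the same libraries. The 222 genes include ZNF10, with a log2 fold change of 5.19, and its part in the r of 0.12 was not tested. When the zinc finger genes were split into 4 groups of nearly equal size by GC content, in the group with the lowest (33.9 to 39.8%) 20 of 57 tested were called lower (35.1%), while 9.93% of the protein-coding genes in the same GC range were. In the other 3 groups the share called lower was between 6.90% and 8.62%, against 7.40% to 12.1% of protein-coding genes in those ranges. GC content moved with cluster and with the change, and its part in the change was not tested. Sequence uniqueness had a Pearson r of 0.15 with the log2 fold change and the untreated level one of -0.03.

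H3K9me3 covered most of these genes in every library. A peak overlapped between 205 and 210 of the 237 gene bodies per library, and 203 (85.7%) carried a peak in all 5 libraries, against 33.0% of protein-coding genes, 59.3% of ZNF genes on other chromosomes and 16.5% of the other protein-coding genes of chromosome 19. The median share of the gene body covered was 39.38% in parental NCCITs, 62.64% and 46.06% in SCi-NCCITs without doxycycline and 46.67% and 50.57% with doxycycline. The values with doxycycline lay between those of the 2 untreated libraries, and no test was run, since an exact permutation test of 2 against 2 libraries cannot pass the threshold. The peak lists give no read depth, so the precision of a coverage value is unknown.

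**Figure D4:**
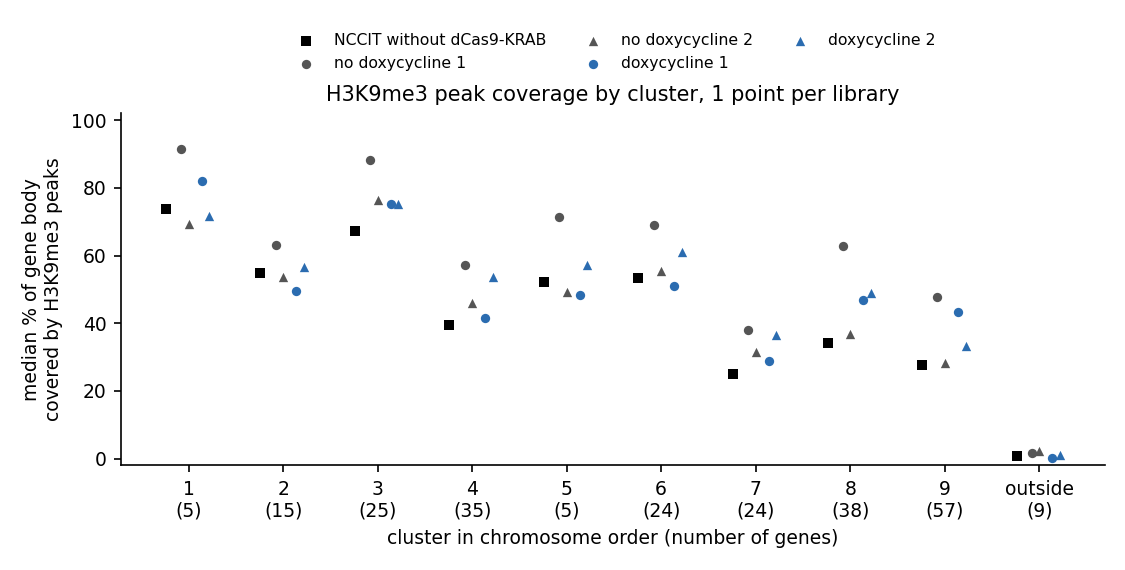
Median percent of the gene body covered by H3K9me3 peaks in each cluster, with 1 point per library: parental NCCITs (black square), SCi-NCCITs without doxycycline (grey) and with doxycycline (blue), circles for replicate 1 and triangles for replicate 2. The untreated replicate 1 is the highest point in every one of the 9 clusters, and the genes outside clusters lie near 0.

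By cluster, coverage was highest in the small cluster 1 and in cluster 3 (67.23% in parental cells, 76.38% and 88.23% in untreated SCi-NCCITs), the cluster with the lowest RNA level. All 35 genes of cluster 4 and all 24 of cluster 6 carried a peak in every library. Cluster 4 had a median coverage of 57.08% and 45.98% without and 41.50% and 53.64% with doxycycline, so the groups overlapped in the cluster with the most downregulated genes, and cluster 6 overlapped likewise. Clusters 7 and 9 had medians between 24.92% and 47.75% over the 5 libraries, and genes outside clusters were between 0.25% and 2.30%. Of the 197 genes tested that had a peak in all 5 libraries, 32 were called lower (16.2%) and 1 higher, a share near the 14.7% lower of all 231, and of the 27 with a peak in no library 2 were called lower and 2 higher. Across the 231 genes, the mean coverage without doxycycline and the log2 fold change had a Pearson r of -0.22.

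YY1, a zinc finger factor that binds many promoters, had a peak within 500 bp of the start of 133 and 139 of the 237 genes without doxycycline and of 151 and 170 with it. The lists with doxycycline hold more peaks in all (82005 and 115673) than those without (56370 and 76098), so the larger number cannot be told apart from this difference between lists. A peak was present in all 4 libraries at 114 genes (48.1%, against 40.5% of protein-coding genes). The share was higher, 61.4%, among ZNF genes on other chromosomes, and 36.7% among the other protein-coding genes of chromosome 19. Of these 114, 24 were called lower (21.1%) and 3 higher, with a median log2 fold change of -0.11. Among the 7779 protein-coding genes tested with such peaks, 9.33% were lower and 8.73% higher. Of the 51 tested zinc finger genes with a peak in no library, 2 were called lower (3.92%) and 1 higher, with a median of -0.14, against 7.66% lower and 8.87% higher over 4048 protein-coding genes. Genes with a YY1 peak also had the higher RNA level, 5.67 against 3.84 TPM in the median, and the part of level in these counts was not tested. The highest summit among the named genes was that of ZNF649, with fold enrichments of 150.66 and 148.17 without and 134.21 and 130.67 with doxycycline.

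The core of the YY1 motif was searched as CCATNTT on both strands of the window from 250 bases before to 50 bases after each start. It was present in 34 of the 237 windows (14.3%), and in 14.7% of those of protein-coding genes. Of the 13 largest falls and rises, 9 had a YY1 peak in all 4 libraries, and only ZNF682 among them also held a match. Its sequence is shown because the motif, the YY1 peak and the fall in RNA meet at this gene. The match lies 35 bases after the start of the gene and in its orientation, on the minus strand of hg19 at chr19:20150264-20150293, and the capitals mark the motif.
ZNF682: gagctcagggtCCATCTTcattgcttagta
The YY1 summits lay 98 and 193 bases after the start without doxycycline and 221 and 156 bases after it with doxycycline, with fold enrichments of 5.65, 4.35, 5.43 and 9.83, so neither peak height nor position separated the groups. A match is a description of letters in this window and does not show binding at it.

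The sgRNAs are directed to SVAs, and chromosome 19 holds 31 of the 635 SVAs on assembled chromosomes that the study lists as de-repressed. The list has 751 intervals, and the 116 on alternate haplotypes or unplaced contigs were left out. By the study's account the sgRNAs also match LTR5Hs elements, a family of viral long terminal repeats, and SVAs outside that list, and distances to these were not analysed here. Within 50 kb of such an SVA were 13 of the 237 genes (5.5%), against 5.0% of protein-coding genes. Of these 13, ZNF100 and ZNF814 were called lower, and the median of the 13 log2 fold changes was -0.09, against -0.06 for the 790 protein-coding genes tested within this distance, of which 120 were lower and 59 higher. ZNF100 of cluster 4 lies 47 bp from an SVA-E. It had 14.2, 13.8 and 15.4 CPM without and 10.3, 11.5 and 11.1 CPM with doxycycline, with the groups apart and a log2 fold change of -0.40 ± 0.0825 (edgeR adjusted p = 0.0108). ZNF814 lies 37293 bp from an SVA-A.

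An SVA lay inside 4 genes, ZNF888 and ZNF665 of cluster 8 and ZNF586 and ZNF552 of cluster 9, the last pair over the same SVA-A. Their log2 fold changes were -0.09 (-0.31 to 0.14), -0.03 (-0.34 to 0.29), -0.09 (-0.25 to 0.07) and -0.08 (-0.28 to 0.12), respectively. None of the 4 was called by edgeR or DESeq2, and 0 had an unadjusted edgeR p under 0.05. Of the 202 protein-coding genes tested with an SVA inside, 45 were called lower and 12 higher, with a median of -0.12. The nearest SVA to ZNF486 was 274233 bp away and that to ZNF90 347645 bp away, and 32 of the 34 downregulated genes (94.1%) were over 50 kb from every de-repressed SVA of the list, as were 218 of the 231 genes tested (94.4%).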

How the data were processed

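The genes and gene lists were chosen with earlier results of these data known. For RNA-seq, the authors trimmed adapters and deposited, for each transcript, estimated counts and TPM from kallisto, not normalized further. For ChIP-seq, the authors aligned reads to hg19 with BWA, kept mapping qualities over 10, removed duplicates and called peaks per sample, and the deposited lists give the fold enrichment as a ratio and the q-value as −log10. Transcripts were matched to GENCODE v44lift37 (88.2% matched), and the rounded sums per gene entered edgeR 4.0.16 (R 4.3.3; filterByExpr, TMM normalization, glmQLFTest, Benjamini-Hochberg over all genes, threshold 0.05), after a test on simulated data. DESeq2 1.42.0 was an alternative. Totals were 14683468, 31905915 and 43443469 estimated counts without and 44680610, 47862394 and 46639141 with doxycycline. Libraries of a group differed by 7.29 to 14.58 times the counting variance. A sequence word is a run of 31 bases, unique if no other gene's transcripts hold it. Genes were named by rule: the 10 largest falls and rises with an adjusted p under 0.05 and at least 1 CPM, the 5 highest levels and the highest of each cluster, 9 with known roles, and those with an SVA inside. SVA intervals came from the study's list. OCT4 peaks were not used here, and 16 HiChIP columns could not be assigned to a sample. Python 3.11.15, numpy 2.4.6, pandas 2.3.3, scipy 1.17.1 and matplotlib 3.10.9 were used.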

Additional observations from a re-analysis of the deposited data

How the results depend on the processing

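Called genes numbered 29 to 40 under DESeq2, DESeq2's size factors, no filter, at least 10 counts in every library, length-scaled counts, protein_coding transcripts and the replicate block (40, with 37 lower), and 6 when a change of 0.5 or more on the log2 scale was also required. Same-numbered libraries had deviations correlated at 0.128, 0.080 and -0.001, and differently numbered ones between -0.127 and 0.06. These values do not settle whether same-numbered libraries were paired. Without 1 library the count ran from 11 to 43 genes, while that over all genes ran from 1396 to 3260. The median log2 fold change of the zinc finger genes ran from -0.15 to -0.10. In every such fit the 38 called genes kept their sign, and 9 (ZNF486, ZNF90, ZNF682, ZNF85, ZNF607, ZNF569, ZNF850, ZNF875 and ZNF814) stayed called in all 13 alternative fits. Of the named genes, ZNF358 lost its call with the replicate block (edgeR adjusted p = 0.0540). Named genes gained as calls were ZNF274, with at least 10 counts in every library (0.0438) and without untreated replicate 1 (0.0366), and ZNF302, without untreated replicate 1 (0.0232). Among genes not called, the sign turned in some fits with 1 library left out, with log2 fold changes of -0.05 to 0.00 for ZNF331, -0.12 to 0.00 for ZNF83, -0.16 to 0.02 for ZNF888, -0.15 to 0.11 for ZNF665 (0.01 in another fit), -0.01 to 0.15 for ZNF428 (0.00 in another) and -0.09 to 0.04 for ZNF57 (0.02 in 2 fits, and 0.00 with the replicate block). Restricting the list to genes with at least 50% unique words, chosen after seeing the data, gave 36 called genes. Genes near an SVA numbered 6 within 20 kb and 24 within 100 kb. The other counts of genes by level, in clusters, with H3K9me3 and with YY1 stayed within 1.5 times the reported value, and the summed TPM difference between -205 and -121. A gap of 0.5 Mb gave 10 clusters and a gap of 2 Mb gave 6, in place of 9. Levels and changes by cluster were not computed again with these gaps. Protein features were not analysed here. Depth limits calls for genes under 1 TPM, and the cause of the shifts was not tested.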
